A study of Homo sapiens with 6 samples.

Results

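The genes described here are 10 of the 63299 in the deposited table: SNX12, its close paralog SNX3, the sorting nexins SNX1, SNX2, SNX5, SNX6 and SNX27 that work with retromer, and the retromer core subunits VPS26A, VPS29 and VPS35. SNX12 was selected on its low level in the knockdown libraries of this same comparison (its fold change between the groups), so its values are a description and no test is given for it. The other 9 genes were chosen for their relation to SNX12 by sequence or function, with earlier results of these data known.

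The libraries are RNA sequencing of LNCaP, an established line of human prostate cancer cells. All 6 come from cells described as an shRNA model against MEP50, the WD-repeat partner of the arginine methyltransferase PRMT5, whose gene is WDR77. The 3 knockdown libraries come from cells given doxycycline (Dox+), and the 3 control libraries come from cells without it (Dox-, no knockdown). No group used here had doxycycline without the hairpin, so the effects of the drug, of the hairpin and of MEP50 loss cannot be told apart. The series calls the libraries of a group biological replicates, and values are given below in the order of replicates 1, 2 and 3.

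Sorting nexins are proteins with a PX domain, a fold that binds phosphoinositide lipids, above all phosphatidylinositol 3-phosphate on early endosomes. They help to pull membrane proteins out of endosomes before these reach the lysosome and to send them back to the trans-Golgi network or the cell surface. Retromer, the VPS26, VPS29 and VPS35 trimer, forms an arch-like coat on these membranes together with SNX3, with SNX-BAR dimers or with SNX27. SNX3 and SNX12 consist of little more than the PX domain, whereas the SNX-BAR nexins also carry a curved BAR domain that shapes membrane tubules.

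SNX12 and SNX3 are similar proteins, so it matters whether sequencing reads can be assigned to each. In GENCODE 29 transcripts (GRCh38, the same build as the hg38 of the counts) both coding sequences are 486 bases long, and 344 of 483 aligned bases were identical (71.2%). The longest run of identical bases was 14, in the coding sequences and in the whole reference transcripts alike, and over all their coding transcripts no word of 25 bases was shared. The stretches shown are centred on that run. They were not chosen as the most alike stretch of the pair, which was not searched for. Each runs 5′ to 3′ in the direction of the gene and capitals mark the 35 of 120 bases that differ. The SNX12 stretch is coding bases 161 to 280, over 3 exons within chrX:71061949-71068146 on the minus strand, and the SNX3 stretch is coding bases 158 to 277, over 3 exons within chr6:108214604-108260764 on the minus strand.
SNX12: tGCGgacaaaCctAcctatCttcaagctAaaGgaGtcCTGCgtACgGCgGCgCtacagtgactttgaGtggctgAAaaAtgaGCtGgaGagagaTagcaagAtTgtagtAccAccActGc
SNX3: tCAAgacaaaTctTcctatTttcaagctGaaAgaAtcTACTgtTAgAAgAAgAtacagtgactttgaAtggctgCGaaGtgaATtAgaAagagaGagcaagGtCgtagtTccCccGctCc

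The annotated 3′ UTRs were searched for a 6-base word, CTCTGT, and its 7-base extension ACTCTGT, which earlier work on these counts had singled out. The search used 1 reference transcript per gene and the transcript strand only, and every ACTCTGT also counts as a CTCTGT. Among all 18880 coding genes with an annotated 3′ UTR, 42.4% held CTCTGT and 15.0% held ACTCTGT. Among the 2314 with a 3′ UTR within 20% of the 1767 bases of SNX12, the shares were 60.2% and 18.8%. Of the 10 genes 5 held CTCTGT (SNX12, SNX6, SNX27, VPS29 and VPS35) and 3 held ACTCTGT (SNX12, SNX6 and SNX27). SNX3, SNX1, SNX2, SNX5 and VPS26A held neither. The ACTCTGT sites of the 3 genes that hold the longer word are shown, with the word in capitals and in the direction of the gene. The word was singled out in these same counts, and SNX12 was selected in them, so its presence there is a description only. They lie at chrX:71059262-71059285 (minus strand) in SNX12, at chr14:34562824-34562847 (minus strand) in SNX6, and at chr1:151695444-151695467 (plus strand) in SNX27. SNX12 holds 3 copies of CTCTGT in its 3′ UTR, and SNX27 has a long 3′ UTR of 4657 bases with 4 copies. For each gene only the copy that extends to ACTCTGT is printed.
SNX12 site: catattcaACTCTGTtcatattaa
SNX6 site: cctctataACTCTGTttattttat
SNX27 site: agggtcttACTCTGTcgcccagac
The reference transcript of the knockdown target WDR77 holds 1 ACTCTGT in its coding sequence and 0 in its 3′ UTR. The hairpin sequence is not given in the sources used here, so whether the word matches the hairpin was not tested. A match describes the letters only, and its part in any level below was not tested.

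The libraries held between 18568002 and 36234784 counts on genes. The target transcript WDR77, which encodes MEP50, was measured at 15.0, 14.0 and 12.7 CPM (reads per 1000000 counted, after TMM scaling for library composition) in knockdown and at 49.3, 47.2 and 36.7 CPM in control. The fitted log2 fold change of -1.67 (SE 0.16, edgeR quasi-likelihood test, adjusted p 0.00131) had the direction that the labels give. The luminal keratins KRT8 and KRT18 were present in every library. KRT8 had 269 to 283 CPM in knockdown and 310 to 355 CPM in control, and KRT18 had 264 to 284 CPM in knockdown and 403 to 413 CPM in control. KRT18 was called lower (log2 fold change -0.59, adjusted p 0.0168, edgeR) and KRT8 was not called (-0.25, adjusted p 0.224). Of 9 markers of basal, stromal, immune and endothelial cells, KRT5 had 0 reads in every library, and TP63, PTPRC and PECAM1 had at most 1. The basal keratin KRT14 had 20, 20 and 39 reads in control and 0, 0 and 5 in knockdown and was called lower (adjusted p 0.0338, edgeR). The collagen gene COL3A1 had 29, 1 and 5 reads in control and 67, 38 and 14 in knockdown, and was called higher only with the replicate number as a block (adjusted p 0.223 without and 0.0020 with it). The 9 summed to 11.0 to 16.5 CPM in knockdown and 8.30 to 15.7 CPM in control, most of it COL1A1. The part of these marker levels in the results below was not tested.

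SNX12 (ENSG00000147164.11, chromosome X, 71056332 to 71073426, hg38) was the member with the largest difference between groups. It was measured at 70.1, 51.8 and 60.7 CPM in control, from 1806, 1555 and 2127 reads. In knockdown it was measured at 6.69, 6.46 and 8.29 CPM, from 125, 239 and 181 reads. The groups were far apart: the highest knockdown library lay well below the lowest control library, and the knockdown libraries still held reads of the gene. The mean was 60.9 ± 9.14 CPM in control and 7.15 ± 0.99 CPM in knockdown (SD, n = 3 libraries per group), a fitted log2 fold change of -3.09 (SE 0.18), or 8.52-fold lower. By replicate number the log2 differences were -3.37, -2.99 and -2.86. Of the 21101 tested genes 5 had a lower log2 fold change. In bulk RNA, fewer cells with the transcript and less of it per cell cannot be told apart. SNX12 shares no exon bases with another gene of the table.

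SNX3 (ENSG00000112335.14, chromosome 6, 108211222 to 108261260), which carries the Wnt transport protein Wntless back from endosomes with retromer, had groups that overlapped. Its levels were 87.1, 60.5 and 83.3 CPM in control and 72.7, 65.9 and 73.8 CPM in knockdown. Control replicate 2 was below all 3 knockdown libraries and the other controls were above them. The log2 fold change was -0.12 (SE 0.16, 95% interval -0.47 to 0.23, adjusted p 0.671, edgeR), an interval that leaves room for a modest change either way. Per kilobase of annotated exon, SNX3 had 41.8 ± 7.81 CPM in control and SNX12 had 23.5 ± 3.52. In knockdown these levels were 38.4 ± 2.32 and 2.75 ± 0.38 CPM per kilobase. SNX12 thus made up 36.3%, 37.8% and 34.1% of the summed per-kilobase level of the pair in control, and 6.14%, 6.51% and 7.39% in knockdown. The sum of both was 65.3 ± 11.1 CPM per kilobase in control and 41.2 ± 2.60 in knockdown, with no overlap (52.8 to 74.3 against 38.3 to 43.2). SNX12 was selected for its low level in knockdown, and SNX3 alone overlapped. The shares and the sum of the pair are therefore a description and were not tested.

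**Figure D1:**
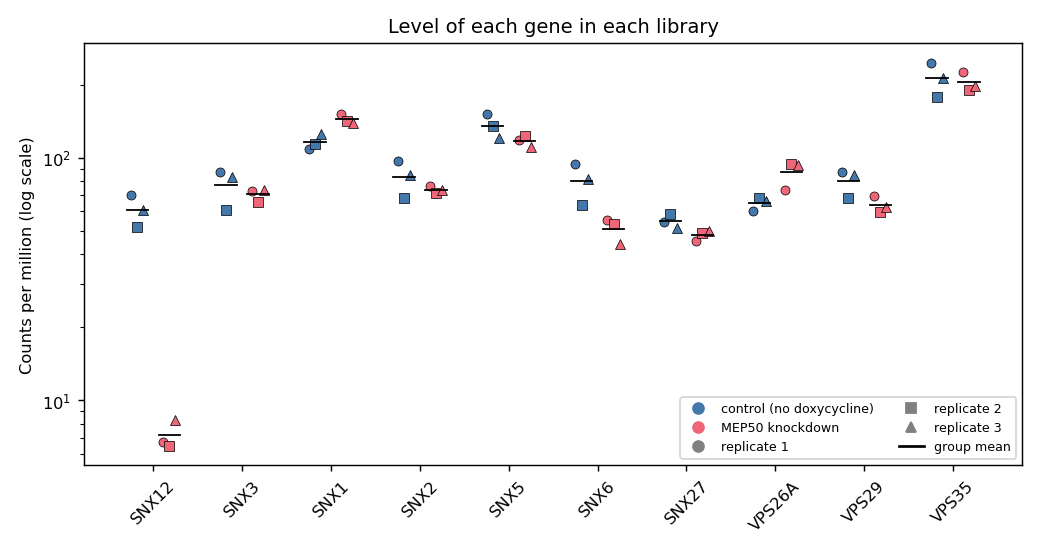
Level of each of the 10 genes in each library, in CPM on a log scale, with control libraries in blue, knockdown libraries in red, replicates 1 to 3 as circle, square and triangle, and the group mean as a bar. SNX12 lies between 51.8 and 70.1 CPM in control and between 6.46 and 8.29 CPM in knockdown, while the other 9 genes lie between 43.8 and 246 CPM over all libraries.

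Among the 9 genes other than SNX12, edgeR called 1 lower and 0 higher at an adjusted p under 0.05, or 11.1%. At an unadjusted p under 0.05 the edgeR counts were 2 higher and 2 lower. The share of all tested genes at that threshold is not given here. DESeq2 also called 0 higher and 1 lower of the 9, beside 898 higher and 1440 lower over all tested genes. With edgeR 7.6% of all 21101 tested genes were called, 4.88% lower and 2.72% higher. The 1 gene in 9 is thus close to the share of the whole table. With the replicate number as a block, which compares each knockdown library with the control library of the same number, 4 of the 9 were called, 2 higher (SNX1 and VPS26A) and 2 lower (SNX6 and VPS29), where 26.1% of all genes were called. Group ranges did not overlap for 4 of the 9, SNX1 and VPS26A higher and SNX6 and SNX27 lower, against 30.4% of all tested genes (13.4% higher and 17.0% lower). All 9 passed the filter on low counts, as did SNX12. Their median log2 fold change was -0.17, beside 0.00 for all tested genes.

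**Figure D2:**
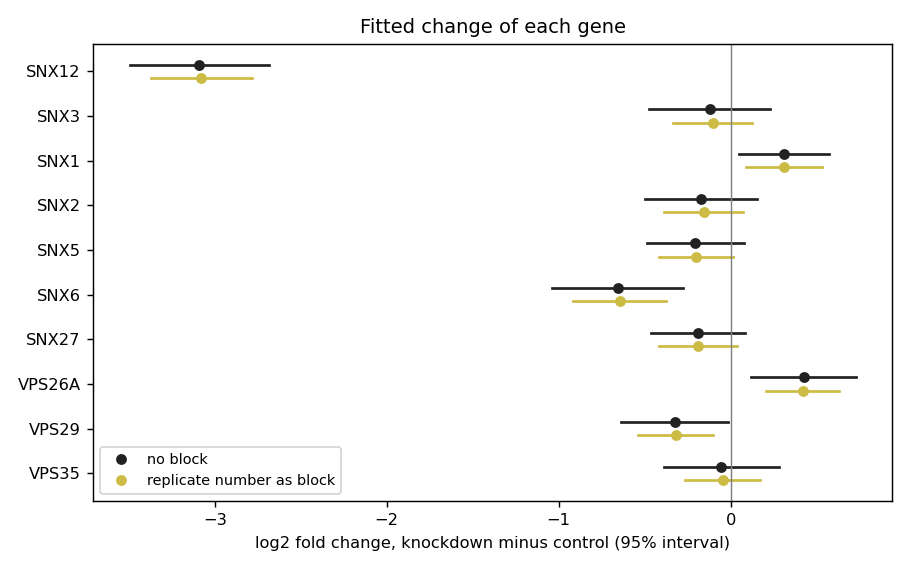
Fitted log2 fold change of each gene, knockdown minus control, with its 95% interval, without the block (black) and with the replicate number as a block (yellow). The SNX12 estimate is -3.09, and the estimates of the other 9 genes lie between -0.66 and 0.42. SNX12 was selected on this fold change, so its intervals are a description and not a test.

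The SNX-BAR nexins work as pairs, SNX1 or SNX2 with SNX5 or SNX6, and form the coat of tubules that carry cargo such as the cation-independent mannose 6-phosphate receptor. SNX6 (ENSG00000129515.18, chromosome 14, 34561094 to 34630183) was the gene called lower. It was measured at 94.5, 64.0 and 81.5 CPM in control and at 55.0, 53.2 and 43.8 CPM in knockdown. Every knockdown library was below every control library, and control replicate 2 was the control library nearest to them. The fitted difference was -0.66 on the log2 scale (SE 0.17, adjusted p 0.0473, edgeR), or 1.58-fold lower, and with the block the adjusted p was 0.00231. The call without the block lay just under the threshold. It held without control replicate 2 (adjusted p 0.0222, edgeR) but was lost without any of the other 5 libraries, each left out in turn (log2 fold change -0.73 to -0.49, adjusted p up to 0.172), and also with RLE scaling (adjusted p 0.0567), with a filter of 1 CPM in 3 libraries (0.0579) and in limma-voom (0.0527). SNX6 shares 182 exon bases with an antisense gene, ENSG00000259135.1, which had at most 2 reads in any library. A processed pseudogene, SNX6P1, had 16 to 62 reads and a log2 fold change of -0.25 (adjusted p 0.703), and the pseudogenes of SNX2, SNX5, VPS26A and VPS35 had at most 7 reads in any library.

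SNX5, which can take the place of SNX6 in the dimer, was measured at 151, 135 and 120 CPM in control and 118, 123 and 111 CPM in knockdown. The groups overlapped by a small margin, and the log2 fold change was -0.21 (95% interval -0.49 to 0.08, adjusted p 0.351, edgeR). SNX5 shares 59 exon bases with OVOL2 and 68 with MGME1, so a small part of its reads could be contested.

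SNX1 and SNX2, their partners in the dimer, are paralogs of each other and had estimates of opposite sign. SNX1 was measured at 109, 114 and 126 CPM in control and at 152, 141 and 139 CPM in knockdown. Each knockdown library was above each control library. The log2 fold change was 0.31 (SE 0.12, 95% interval 0.05 to 0.57) and was not called (adjusted p 0.137, edgeR), but was with the block (adjusted p 0.0405). SNX2 was measured at 96.6, 68.2 and 84.4 CPM in control and at 76.1, 71.1 and 73.8 CPM in knockdown, so the groups overlapped (log2 fold change -0.17, 95% interval -0.50 to 0.15, adjusted p 0.503). SNX1 made up 38.1% ± 4.73 of the per-kilobase sum of the SNX1 and SNX2 pair in control and 45.9% ± 0.83 in knockdown. That share is a description and was not tested. The summed per-kilobase level of SNX1, SNX2, SNX5 and SNX6 was 67.9 ± 7.75 CPM in control and 59.1 ± 2.80 in knockdown, and the libraries of the groups overlapped.

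SNX27 differs from the rest by a PDZ domain, which binds the tails of receptors such as the beta-2 adrenergic receptor and hands them to retromer for return to the cell surface. It was measured at 54.4, 58.7 and 51.3 CPM in control and at 45.4, 49.1 and 49.7 CPM in knockdown. Although no knockdown library reached the lowest control library, the log2 fold change was -0.19 (SE 0.12, 95% interval -0.46 to 0.09) and was called neither without the block (adjusted p 0.374, edgeR) nor with it (0.207). SNX27 shares 335 exon bases with ENSG00000250734.2, on the other strand, which had 3 to 46 reads.

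None of the 3 core subunits of retromer was called without the block. VPS35, the long scaffold that joins the others, was measured at 246, 178 and 213 CPM in control and at 226, 190 and 197 CPM in knockdown. The knockdown libraries lay inside the control range (log2 fold change -0.06, 95% interval -0.39 to 0.28, adjusted p 0.855, edgeR). VPS29, which sits at the end of VPS35 and binds regulators such as TBC1D5, was measured at 87.2, 67.8 and 84.6 CPM in control and 69.3, 59.5 and 62.3 CPM in knockdown. Its groups overlapped through control replicate 2 and knockdown replicate 1, but each knockdown library was below its own control number. On the log2 scale the difference was -0.33 (SE 0.14, adjusted p 0.182, edgeR), and the gene was called only with the block (adjusted p 0.0335). VPS29 shares 70 exon bases with a SNORD50 copy that had 0 reads and 69 with RP3-424M6.4 on the other strand, which had 147 to 369 reads.

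VPS26A, the arrestin-like subunit that contacts cargo and SNX3, had an estimate above 0. It was measured at 60.3, 68.2 and 66.1 CPM in control and at 73.8, 94.0 and 93.3 CPM in knockdown. All knockdown libraries were above all control libraries, with knockdown replicate 1 the closest to them. The log2 fold change was 0.42 (SE 0.14, 95% interval 0.12 to 0.73), or 1.34-fold higher, which was not called without the block (adjusted p 0.0907, edgeR) and was called with it (0.00798). Per kilobase of exon, the ratio of VPS26A to VPS35 was 0.67, 1.05 and 0.85 in control and 0.89, 1.35 and 1.30 in knockdown. It was higher in knockdown in each of the 3 pairs, though the groups overlapped. The ratio of VPS29 to VPS35 was 1.14 ± 0.07 in control and 0.95 ± 0.02 in knockdown, without overlap. These ratios were chosen after the values were seen and were not tested. VPS26B, the other form of the subunit, had a log2 fold change of -0.16 (adjusted p 0.482, edgeR). VPS26A made up 55.1% ± 1.72 of the per-kilobase sum of the VPS26A and VPS26B forms in control and 64.6% ± 4.06 in knockdown, a share that was not tested either.

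**Figure D3:**
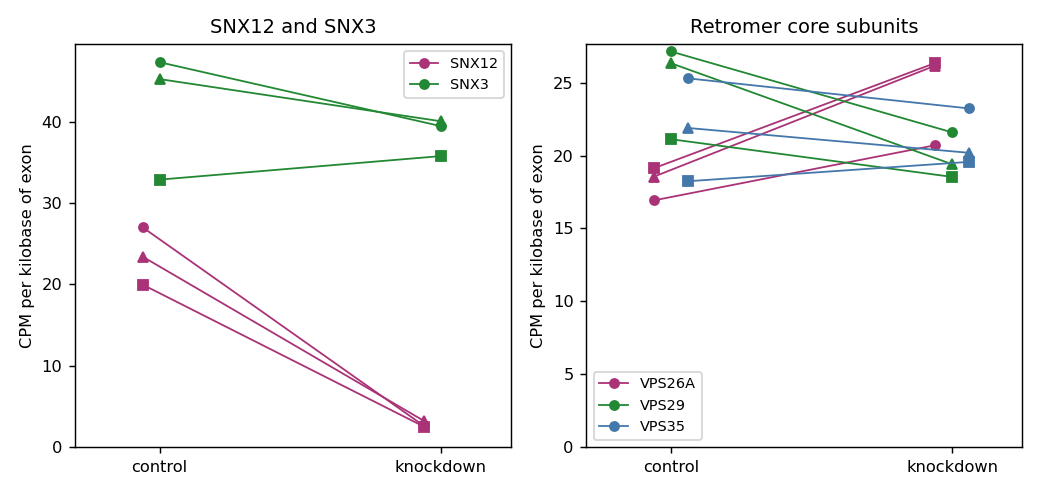
CPM per kilobase of annotated exon for SNX12 and SNX3 (left) and for the retromer core subunits (right). Each line joins the control and knockdown libraries of the same replicate number (circle 1, square 2, triangle 3). SNX12 averages 23.5 in control and 2.75 in knockdown, and VPS26A is the core subunit that is higher in knockdown in every pair.

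Ordered by the per-kilobase level in control cells, SNX3 came first and its libraries stayed above those of every other member. VPS29 (24.9), SNX12 (23.5), VPS35 (21.8), SNX2 (19.5), SNX6 (19.5), VPS26A (18.2) and SNX5 (17.0 CPM per kilobase) followed, and each overlapped with its neighbour in that order, so their order is not resolved. SNX1 (11.9) and SNX27 (7.34) were lower, without overlap with the gene above. The exon length used here merges all annotated transcripts, so a gene with long rarely used exons, such as the 9780 bases counted for SNX1, may have its per-kilobase level understated. Control replicate 2 held the lowest control value for 6 of the 10 genes (SNX12, SNX3, SNX2, SNX6, VPS29 and VPS35), and its part in the width of their spread was not tested.

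Of 23 other sorting nexin genes 21 were tested, and 1 was higher and 1 lower (edgeR, adjusted p under 0.05). These are 9.52% of the 21, close to the 7.6% called over all tested genes, and the list had a median log2 fold change of -0.02. SNX32, an SNX-BAR relative of SNX5 and SNX6, fell from 146, 135 and 124 CPM in control to 63.1, 56.4 and 49.6 CPM in knockdown. The difference of -1.26 on the log2 scale (SE 0.13, adjusted p 0.00177 by edgeR) was called whichever library was left out. SNX32 shares 357 exon bases with the actin-severing gene CFL1 on the other strand, which was measured at 546 CPM in control and 211 CPM in knockdown (log2 fold change -1.37, adjusted p 0.00173). The strand setting of the counting is not given in the sources used here, so whether some CFL1 reads are in the SNX32 count was not tested.

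SNX16, a PX-domain nexin of late endosomes, was the nexin called higher. It rose from 31.9, 29.6 and 28.3 CPM in control to 62.2, 48.1 and 38.9 CPM in knockdown (log2 fold change 0.73, SE 0.18, adjusted p 0.0417, edgeR). The call held without knockdown replicate 3 and was lost without each of the other 5 libraries (log2 fold change 0.53 to 0.82, adjusted p up to 0.123). SNX16 shares 55 exon bases with RP13-923O23.6 on the other strand, which had 36 to 116 reads. SNX19 had the third smallest p of this list, with a log2 fold change of -0.33 that was called only with the block (adjusted p 0.0948 without and 0.0236 with it). With the block 2 of the 21 were higher and 3 lower, beside 11.2% and 14.9% of all tested genes. SNX20 and SNX31 had at most 3 reads in any library and were not tested.

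**Figure D4:**
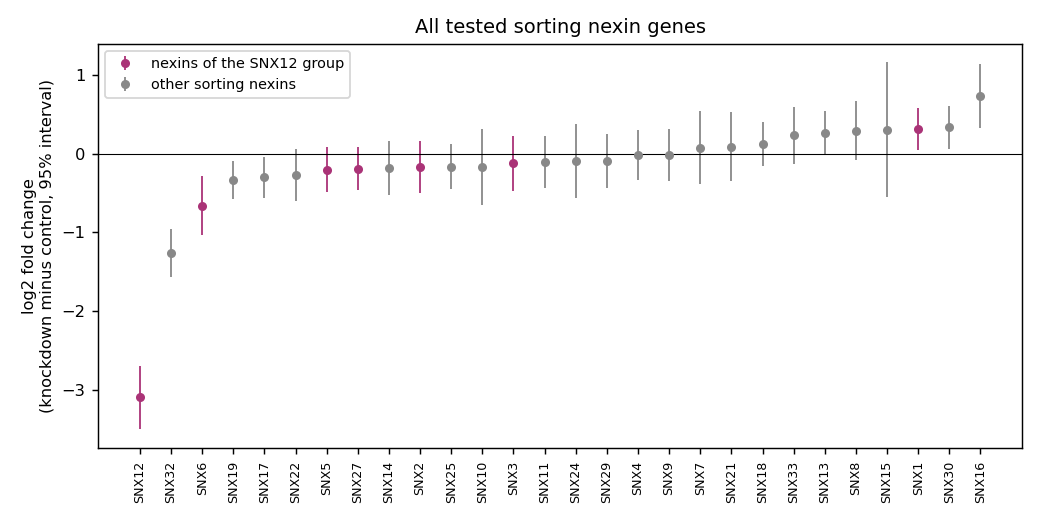
Log2 fold change, knockdown minus control, with its 95% interval for the 28 tested sorting nexin genes in order of the estimate, with the nexins described here in purple and the others in grey. SNX12 lies at -3.09, SNX32 at -1.26 and SNX6 at -0.66, and SNX16 lies at the other end at 0.73. SNX12 was selected on this fold change, so its interval is a description and not a test.

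SNX12 lies on the X chromosome among genes whose estimates all lay nearer to 0. SNX12 was selected for its fold change, so that contrast follows largely from the choice and is a description only. Within 500 kilobases on either side 11 genes were tested, with a median log2 fold change of -0.08, and 1 was called (9.09%, beside 7.6% of all tested genes). The neighbours nearest to SNX12 were the pseudogene SOCS5P4 at 10.9 kilobases, FOXO4 at 22.8 kilobases and MED12 at 45.1 kilobases. FOXO4, a forkhead transcription factor gene, had a log2 fold change of 0.17 (adjusted p 0.678, edgeR), and MED12, a subunit of the Mediator kinase module, had -0.40 (adjusted p 0.174). SOCS5P4 was below 1 CPM in every library (log2 fold change -1.20, adjusted p 0.14). GJB1, a gap junction gene 142 kilobases away, was the neighbour called lower, from 2.33, 4.20 and 3.23 CPM in control to 0.43, 1.38 and 1.24 CPM in knockdown (log2 fold change -1.63, SE 0.40, adjusted p 0.0417). That call held without control replicate 1 and was lost without each of the other 5 libraries (log2 fold change -1.94 to -1.32, adjusted p up to 0.0951). The remaining neighbours were RPS23P8 (0.53), NLGN3 (0.63), ZMYM3 (-0.08), NONO (-0.06), ITGB1BP2 (-0.73), TAF1 (-0.08) and OGT (0.19), given as log2 fold changes, and none was called with or without the block.

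**Figure D5:**
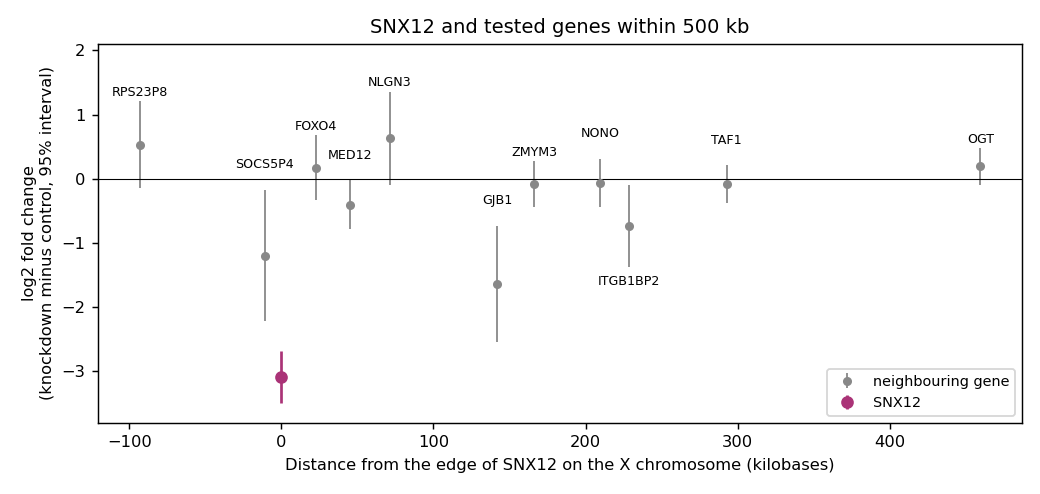
Log2 fold change, knockdown minus control, with its 95% interval for SNX12 (purple) and the 11 tested genes within 500 kilobases (grey), against the distance in kilobases from the nearer edge of SNX12, negative toward lower coordinates. SNX12 lies at -3.09, and the next lowest estimate is that of GJB1 at -1.63. SNX12 was selected on this fold change, so its interval and its place below the neighbours are a description and not a test.

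The genes whose pattern over the 6 libraries was most like that of SNX12 came from other pathways. Likeness was the root-mean-square difference of log2 CPM, each gene set against its own control mean, among 10474 genes with at least 10 CPM in control. ANAPC13, a small subunit of the anaphase-promoting complex, was closest at 0.36, with 95.9, 76.4 and 79.6 CPM in control and 15.3, 12.3 and 13.3 CPM in knockdown. The secreted chaperone CLU followed at 0.37, then ENSG00000274630.1 at 0.52, the citrate-cleaving enzyme ACLY at 0.59 and the nuclear export factor NXT2 at 0.65. All 156 exon bases of ENSG00000274630.1 lie within ACLY on the other strand, so their reads cannot be told apart without strand. ANAPC13 shares 284 exon bases with CEP63 on the other strand, which had 642 to 1531 reads. These 5 genes were picked for a low level in the same libraries, so no test is given. In their reference 3′ UTRs ANAPC13 and NXT2 hold ACTCTGT, ACLY holds CTCTGT without the longer word, and CLU holds neither. The word was singled out by earlier work on these counts, so these matches too are a description only.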

How the data were processed

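The authors deposited 1 table of raw counts, whole reads assigned to each gene in each library. They used, per the submitters' processing notes, bcl2fastq, STAR 2.5, hg38, featureCounts from Subread 1.6.5 and edgeR 3.20.8; the annotation release, strand and multi-mapping settings are not given in the sources used here. The deposited table also gives an exon length per gene, used here for levels per kilobase.

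Counts were tested with edgeR 4.0.16 in R 4.3.3: TMM scaling, filterByExpr, a two-sided quasi-likelihood F test of knockdown against control and Benjamini-Hochberg adjustment over all 21101 tested genes, with an adjusted p under 0.05 called. Alternatives were RLE scaling, other filters, chromosome rows only, DESeq2 1.42.0, limma-voom 3.58.1, a replicate block and leaving out each library. The test was also run on counts simulated from the levels and spread of these libraries. Log2 values used a prior count of 2 for single libraries.

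The series calls the libraries biological replicates; whether they were separate cultures is not stated, so p-values measure the spread between these libraries, which may be technical. Over tested genes, deviations from the group mean correlated at 0.55, 0.38 and 0.36 between libraries with the same number and at -0.39 to 0.06 otherwise, so the numbers appear to pair them. The identifiers of 8 of the 10 members occur in GENCODE 29 with the same coordinates; the others were matched by name.

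The members and gene lists were chosen with earlier results of these data known. The genes named are WDR77, the members, the 3 genes with the smallest p in each list, tested neighbours of SNX12, the 5 genes most like it, and pseudogenes of members; WLS, VPS26B, CFL1, SNX20, SNX31 and the cell type markers were named after their values were seen. Some markers and sites that were part of the lists and searches are not reported here.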

Additional observations from a re-analysis of the deposited data

How the results depend on the processing

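Both sets of libraries carry replicate numbers 1 to 3, and blocking on that number (the replicate block) gave more calls over all genes than the other settings. With that block the counts were 2 higher and 2 lower among the 9 members other than SNX12, 2 higher and 3 lower among other sorting nexins, 1 higher and 2 lower in the Commander list, 1 higher in the WASH list, 3 lower in the cargo list and 2 lower in the phosphoinositide list, and over all tested genes 2358 higher and 3148 lower. RLE scaling, the filter of 1 CPM in 3 libraries and limma-voom left 0 lower members other than SNX12, and both RLE scaling and that filter left 0 lower in the phosphoinositide list. Over all genes, the 574 higher calls became 1336 and the 1029 lower calls 1812 without a low-count filter, and DESeq2 called 898 higher. The log2 fold change of SNX12 ranged from -3.21 to -2.94 over fits that left out 1 library. In such fits the calls over all genes ranged from 168 to 500 higher and from 329 to 923 lower, and from 0 to 1 lower among the members other than SNX12. They ranged from 0 to 1 higher among other nexins and from 0 to 1 lower in the cargo list and in the phosphoinositide list. For the 37 named genes with a test, 441 of 479 values under the alternatives kept their side of the threshold, 28 lost a call and 10 gained one by the block. The sign turned in 0 values of the 8 called genes and in 5 values of 4 genes that were not called. Without control replicate 1 the estimates were 0.01 for SNX3, 0.10 for VPS35 and 0.07 for NONO, and without knockdown replicate 2 they were 0.03 for ZMYM3 and 0.05 for NONO. The lowest count of a member in any library was 125 reads.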

Other observations

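Of 74 genes in 5 lists of relatives and partners of the nexins and retromer 72 were tested, and 5 were called (6.94%, beside 7.6% of all tested genes, edgeR). In the Commander and retriever list, a complex that recycles cargo with SNX17 in place of retromer, the median log2 fold change of 15 genes was -0.04 and 1 was called. That gene, COMMD7, fell from 33.3, 28.4 and 32.5 CPM in control to 16.8, 13.0 and 17.7 CPM in knockdown (log2 fold change -0.99, SE 0.17, adjusted p 0.0106), whichever library was left out. COMMD6 (0.42) and COMMD4 (-0.36) were called only with the replicate block (adjusted p 0.0272 and 0.022). In the list of the actin-regulating WASH complex and retromer partners 0 of 12 were called by edgeR, DESeq2 and limma-voom (median -0.07). In edgeR 1 had an unadjusted p under 0.05, and the share of all tested genes at that threshold is not given here. The smallest p in that list belonged to FAM21A, now WASHC2A (0.38, adjusted p 0.0787, and 0.0149 with the block), then FAM21C (0.25) and KIAA1033, now WASHC4 (-0.20). FAM21A and FAM21C are near-identical copies, so reads may be split between them.

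Cargo and lipid genes showed 1 lower call each. Of 10 cargo receptors and transporters (median -0.08), the sorting receptor SORL1 fell from 36.7, 41.3 and 63.9 CPM in control to 19.1, 18.0 and 29.9 CPM in knockdown (log2 fold change -1.09, SE 0.26, adjusted p 0.0382, edgeR). The call did not survive leaving out knockdown replicate 1, knockdown replicate 2, control replicate 2 or control replicate 3 (adjusted p up to 0.144). SORT1 (-0.46) and the copper transporter ATP7A (-0.31) were called only with the block (0.00576 and 0.0488). Wntless, the SNX3 cargo, is encoded by WLS, which had a log2 fold change of 0.02 (adjusted p 0.968). Of 14 genes that make, remove or read phosphatidylinositol 3-phosphate (median -0.05), the lipid phosphatase MTMR2 fell from 104, 85.7 and 69.8 CPM in control to 63.1, 50.2 and 44.6 CPM in knockdown (log2 fold change -0.72, SE 0.18, adjusted p 0.0479). That call did not survive leaving out knockdown replicate 2, knockdown replicate 3, control replicate 1 or control replicate 2 (adjusted p up to 0.164), RLE scaling (0.0519) or the filter of 1 CPM in 3 libraries (0.0521). PIK3R4 (-0.28) was called only with the block (0.0477), and STAM2 (0.25) in neither fit.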
